A study of Danio rerio with 72 samples.

Results

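Notch is a receptor whose intracellular part is cut free when a neighbouring cell presents a Delta or Jagged ligand. The freed domain enters the nucleus, binds the DNA-binding protein Rbpj and turns on genes that include the hairy-related her and hey repressors. In the presomitic mesoderm, the unsegmented tissue of the tail that buds off somites, this pathway works in the segmentation clock. Forced expression of the intracellular domain switches the pathway on without ligand.

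The comparison described here is that of active Notch 45 min after a heat shock. It uses 8 of the 72 arrays of the series, which covers 19 groups of zebrafish posterior presomitic mesoderm samples. The 4 notch1a-intra arrays came from the cross of Tg(UAS:myc-notch1a-intra) with Tg(hsp70;gal4VP16), in which a heat-inducible promoter drives the activator Gal4VP16 and Gal4VP16 drives a myc-tagged Notch1a intracellular domain. The 4 gal4 arrays came from Tg(hsp70;gal4VP16) embryos, which make the activator without the Notch domain. Both groups were raised at 24 °C to the 12-somite stage, heated at 37 °C for 1 h, returned to 24 °C and dissected 45 min later. The samples are labelled as biological replicates 1 to 4 in each group. The labels do not say how many embryos were pooled, which embryos of the cross carried both transgenes, or whether a replicate number marks a shared clutch or day. All 15502 probe sets other than the array maker's controls were members, and 10126 of them were tested. The tested probe sets exceeded the median of the array on 3 or more of the 72 arrays.

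Levels and differences are given on a log2 scale of the signal plus 16, after quantile normalization, so the bottom of the scale is 4 and the array median is 5.58. A difference is the notch1a-intra mean minus the gal4 mean, and its fold is on the same scale, which understates the change of dim genes. A gene was called where the limma test gave an adjusted p under 0.05. In bulk tissue, fewer cells of a type and less RNA per cell cannot be told apart. Markers of the labelled tissue were present on all 8 arrays. The level of msgn1, a bHLH factor gene of presomitic mesoderm, lay between 11.87 and 12.54, and 17 of the 24 segmentation and somite genes on the array were above the array median on all 8 arrays.

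The 4 arrays labelled notch1a-intra did not carry the same amount of notch1a RNA. On the brighter of the gene's probe sets, the gal4 levels were 7.50, 7.20, 7.51 and 8.46 for replicates 1 to 4. The notch1a-intra levels were 11.64, 8.0, 11.83 and 8.29. Replicates 1 and 3 stood far above every gal4 array, and replicates 2 and 4 lay inside the gal4 range. A dimmer probe set of notch1a also set replicates 1 and 3 far apart, with 11.35, 6.13, 11.51 and 6.24 in the notch1a-intra arrays against 5.35 to 6.11 in the gal4 arrays. On it replicates 2 and 4 lay just above the gal4 range. The part of the transcript that either probe set reads is not given in the sources used here. At 90 min after the heat shock, where 4 arrays of each genotype were also made, the mean notch1a levels were 8.09 in gal4 and 11.85 in notch1a-intra, and all 4 notch1a-intra arrays were high. Over all 8 arrays at 45 min the notch1a difference was 2.27 (SE 0.41, adjusted p = 0.00029 in limma), a 4.82-fold change. With the 2 compared groups fitted alone, without the other arrays of the series, its adjusted p was 0.299, and 0.25 when the replicate number was added to that fit as a block. Every value given below for the block fit comes from the second of these, so it differs from the main value by the arrays left out as well as by the block. In what follows the arrays labelled notch1a-intra are therefore given together and also apart, as replicates 1 and 3 and as replicates 2 and 4. Because notch1a itself chose that division, its differences in the divided arrays (4.06 and 0.48) are a description.

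The same division by number ran through the controls. Among the gal4 arrays at 45 min, replicates 1 and 3 correlated at 0.989 across probe sets and replicates 2 and 4 at 0.959, while every odd and even pair correlated at 0.941 or 0.942. Among the notch1a-intra arrays the corresponding values were 0.98, 0.988 and 0.926 to 0.941. In the gal4 arrays, 599 of 10126 probe sets (5.92%) had means of replicates 2 and 4 and of replicates 1 and 3 more than 1 apart. The 90 min arrays also divided by number. In notch1a-intra there, replicates 1 and 3 correlated at 0.987 and replicates 2 and 4 at 0.991, against 0.966 to 0.97 for odd and even pairs. In gal4 the corresponding values were 0.967, 0.972 and 0.936 to 0.965. Main divided results are therefore also given against the gal4 arrays of the same numbers. The part of this division in each result was not tested beyond those values.

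Across all arrays, 414 probe sets (4.09% of those tested) were called, 216 higher and 198 lower in notch1a-intra. With the 2 groups fitted alone the count was 61, and the block in that fit raised it to 158, with 56 higher and 102 lower. A block of odd against even numbers in the same fit, added after seeing the data, gave 338, with 150 higher and 188 lower. Leaving out notch1a-intra replicate 3 gave 244. Against the 4 gal4 arrays, replicates 1 and 3 differed in 1187 probe sets (11.7%), 598 higher and 589 lower. That count was 349 without replicate 1 and 420 without replicate 3 of notch1a-intra. Replicates 2 and 4 differed from the gal4 arrays in 460 probe sets (4.54%), 253 higher (2.50%) and 207 lower (2.04%). Fitted alone, the groups gave 63, and 772 with the block, whereas leaving out notch1a-intra replicate 4 or 2 left 25 or 79, and leaving out gal4 replicate 1 left 287. Against gal4 arrays of their own numbers, replicates 1 and 3 gave 567 calls (5.60%) and replicates 2 and 4 gave 335 (3.31%, with 1.72% higher and 1.59% lower). The groups did not overlap in 889 probe sets (8.78%) over all arrays, in 3354 (33.1%) for replicates 1 and 3 and in 2810 (27.8%) for replicates 2 and 4.

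Several hairy-related genes, the classical transcriptional targets of Notch, were higher in replicates 1 and 3, the arrays with high notch1a. Of the 26 in the list, 15 were on the array and 14 were tested. In replicates 1 and 3, 6 of the 14 rose and 0 fell (1 fell at an unadjusted p under 0.05), beside 5.91% and 5.82% of all probe sets, and their median difference was 1.00 beside -0.00076 for all probe sets. Against gal4 arrays of the same numbers 4 rose and 0 fell, beside 2.85% and 2.75%. In replicates 2 and 4, 0 rose in limma, also at an unadjusted p under 0.05, and 1, her9, was called lower, beside 2.04% of all probe sets. Over all 4 arrays 1 rose, her4.5, beside 2.13%. At 90 min, on separate arrays, 6 rose and 1 fell, beside 3.72% and 3.15% of all probe sets.

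The hey1 gene, which encodes a repressor of the hairy-related family, showed the pattern clearly. Its gal4 levels were 7.54, 6.56, 6.75 and 6.07, and its notch1a-intra levels were 9.67, 6.26, 9.59 and 6.01. Replicates 1 and 3 were above all gal4 arrays and replicates 2 and 4 were within or just below their range. The difference of replicates 1 and 3 was 2.90 (SE 0.37, adjusted p = 6.56e-08), or 7.48-fold, and against gal4 replicates 1 and 3 alone it was 2.49 (adjusted p = 5.07e-05). In replicates 2 and 4 it was -0.60 (adjusted p = 0.419). At 90 min hey1 rose by 2.49 (adjusted p = 0.000103).

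The her4 and her15 genes, members of the same repressor family, were dim in gal4 embryos. The her4 genes were near the bottom of the scale and her15.2 was near the array median. The gal4 levels of her4.5 were 4.72, 4.55, 4.53 and 4.82, and the notch1a-intra levels were 7.48, 4.60, 7.22 and 5.03. It rose 6.47-fold in replicates 1 and 3 (difference 2.69, SE 0.35, adjusted p = 1.3e-07) and by 2.82 at 90 min (adjusted p = 1.4e-07). Its difference over all 4 arrays, 1.43 (adjusted p = 0.014), rested on those replicates: it was not called without notch1a-intra replicate 1 (adjusted p = 0.143), without replicate 3, or in the block fit (adjusted p = 0.275). For her15.2 the gal4 levels were 5.36, 5.48, 5.23 and 5.61 and the notch1a-intra levels were 8.11, 5.06, 7.28 and 5.20. Replicates 1 and 3 again stood apart, by 2.27 (adjusted p = 2.31e-08), and the 90 min difference was 2.12 (adjusted p = 4.94e-06). The her4.2 levels were 4.80, 4.12, 4.94 and 4.80 in gal4 and 7.17, 4.11, 6.47 and 4.42 in notch1a-intra. Its rise in replicates 1 and 3 was 2.15 (adjusted p = 4.01e-05), against 1.48 at 90 min (adjusted p = 0.00867). The her4 and her15 genes lie in families of near-identical copies, so the signal of a probe set may come from several copies and the naming of the copy is uncertain.

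Other hairy-related genes were less clear. The repressor gene her6 had gal4 levels of 9.21, 9.23, 8.79 and 6.80 and notch1a-intra levels of 10.02, 7.77, 10.21 and 7.22. It was called in replicates 1 and 3 (1.61, adjusted p = 0.00652) but not against gal4 replicates 1 and 3 (1.12, adjusted p = 0.0886), and the call was also lost without notch1a-intra replicate 3 (adjusted p = 0.0937). At 90 min her6 rose by 1.61 (adjusted p = 0.0105). The difference of her8a in replicates 1 and 3, 1.01 (adjusted p = 0.0387), was not called in the block fit (adjusted p = 0.226), and was 0.39 against the gal4 arrays of the same numbers. The hey2 difference was 0.91 in replicates 1 and 3 (adjusted p = 0.101) and 0.97 at 90 min (adjusted p = 0.0487). For her9 the gal4 levels themselves spread over 9.41, 6.01, 9.26 and 8.57. Its call in replicates 2 and 4 (-2.51, adjusted p = 0.0296) was lost in the block fit (adjusted p = 0.711), against gal4 arrays of the same numbers (-1.49, adjusted p = 0.363) and without any of several single arrays, among them notch1a-intra replicate 4 (adjusted p = 0.296).

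**Figure D1:**
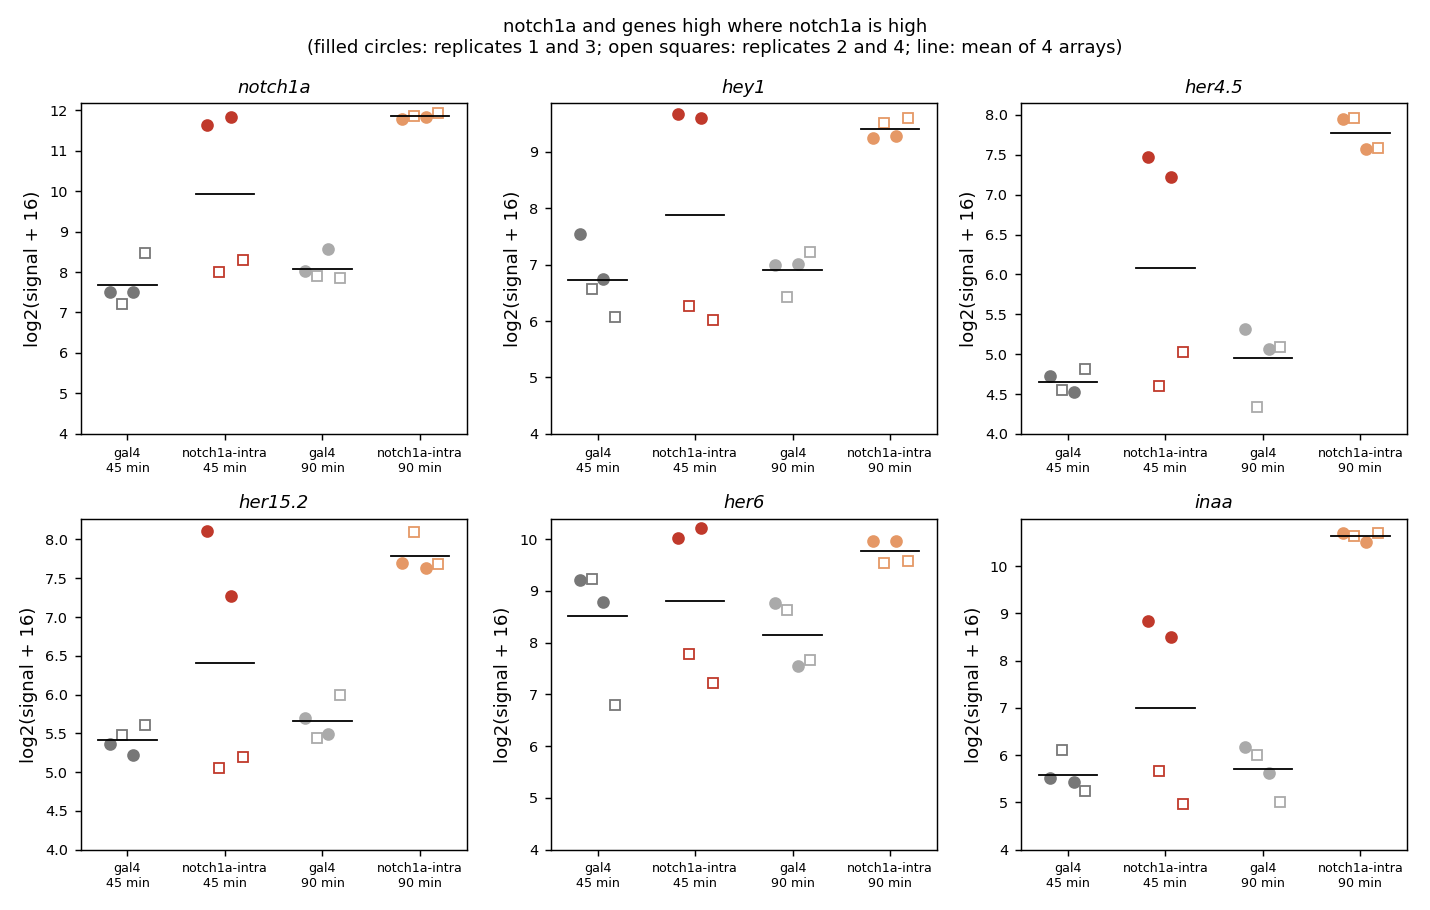
Log2(signal + 16) of 6 genes on each array of the gal4 and notch1a-intra groups at 45 and 90 min, with filled circles for replicates 1 and 3, open squares for replicates 2 and 4 and a line at the mean of 4 arrays. In notch1a-intra at 45 min the circles of notch1a, hey1, her4.5, her15.2 and inaa lie well above every gal4 array and the squares lie within, below or, for her4.5 at 5.03, just above their range, whereas at 90 min all 4 notch1a-intra arrays are high.

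The oscillating clock genes her1, her7 and dlc were not called over all arrays. The gal4 levels of her1 ran from 7.54 to 8.26 and its notch1a-intra levels from 8.36 to 9.39, so the groups did not overlap, but the difference of 0.84 was not called (adjusted p = 0.313). The clock gene her7 differed between odd and even gal4 arrays (6.74, 9.17, 6.88 and 9.0) and read 8.08, 8.70, 8.89 and 9.54 in notch1a-intra (difference 0.86, adjusted p = 0.426). For the ligand gene dlc the difference was 0.85 (adjusted p = 0.504). The glycosyltransferase gene lfng had notch1a-intra levels of 10.33, 6.96, 9.58 and 7.20 around gal4 levels of 8.37 to 9.05, higher in replicates 1 and 3 and lower in 2 and 4, and neither difference was called (adjusted p = 0.467 and 0.32).

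Among receptors and ligands, 10 of the 15 listed were tested, and the 1 called was notch1a. The receptor gene notch3 read 8.48, 7.50, 8.39 and 7.24 in notch1a-intra and 7.21 to 8.04 in gal4, with a difference of 0.81 in replicates 1 and 3 (adjusted p = 0.182). The ligand gene dld stayed between 9.84 and 10.11 on all 8 arrays. Of the 13 tested genes for processing and nuclear partners, 1 was called higher over all arrays and 3 in replicates 1 and 3, with 0 called lower in limma (0 and 1 at an unadjusted p under 0.05), beside 2.13% and 5.91% of all probe sets higher. In replicates 1 and 3, 1 rose against gal4 arrays of the same numbers. The call over all arrays was rfng, which encodes a Fringe glycosyltransferase that modifies Notch. Its gal4 levels were 6.62, 7.13, 7.39 and 7.69 and its notch1a-intra levels 8.2, 8.0, 8.14 and 7.99. All 4 notch1a-intra arrays were above all gal4 arrays, replicates 2 and 4 included. The rfng difference was 0.88 (SE 0.26, adjusted p = 0.0379), with an adjusted p of 0.0995 in the block fit and 0.16 without gal4 replicate 1. It was called in replicates 1 and 3 (0.96, adjusted p = 0.0401) but not in replicates 2 and 4 (0.79, adjusted p = 0.162). At 90 min rfng was not called (0.77, adjusted p = 0.0593). DAPT blocks the gamma-secretase cut that frees the Notch domain. After 1.5 h of it rfng was lower than in DMSO solvent controls by 1.04 on separate arrays (adjusted p = 0.022, with 2.22% of probe sets called lower). The labels give no heat shock for the DAPT and DMSO samples. They hold replicates 1 to 3 of 1.5 h DAPT, replicates 1 and 2 of 3 h DAPT, and replicates 1 to 4 of each DMSO control.

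The Nrarp genes encode ankyrin-repeat proteins that are induced by Notch and damp it. The dim gene nrarpb was 0.83 higher in replicates 1 and 3 (adjusted p = 0.0151), a call lost in the block fit (adjusted p = 0.0542), against gal4 arrays of the same numbers (0.78, adjusted p = 0.0897) and without notch1a-intra replicate 1 (adjusted p = 0.283). The probe sets of nrarpa disagreed. The brightest, near the top of the scale, read 10.92 to 11.38 in gal4 and 11.15 to 11.38 in notch1a-intra. A second one read 7.56, 7.62, 7.86 and 6.97 in gal4 and 8.30, 8.63, 8.88 and 8.31 in notch1a-intra, above the controls on all 4 arrays, with a difference of 1.03 at 45 min (adjusted p = 0.00195) and 1.49 at 90 min (adjusted p = 9.05e-07). Another tested one, dimmer than both, read 5.94 to 6.89 in gal4 and 6.21 to 6.69 in notch1a-intra. It was not called at 45 min (-0.015, adjusted p = 0.98) or at 90 min (0.56, adjusted p = 0.108). The gamma-secretase subunit gene aph1b was called in replicates 1 and 3 (0.97, adjusted p = 0.0105), but its gal4 levels followed the numbers (8.48, 7.39, 8.57 and 6.95), the difference was 0.29 against gal4 replicates 1 and 3 (adjusted p = 0.582), and the adjusted p was 0.259 in the block fit and 0.162 without notch1a-intra replicate 1.

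Outside the Notch pathway, a small group of genes rose as strongly as the her and hey genes in replicates 1 and 3 and rose again at 90 min. The neuronal intermediate filament gene inaa had gal4 levels of 5.53, 6.12, 5.44 and 5.25 and notch1a-intra levels of 8.84, 5.67, 8.49 and 4.98. Its difference in replicates 1 and 3 was 3.08 (SE 0.47, adjusted p = 7.83e-06), or 8.46-fold, and at 90 min it was 4.93, or 30.4-fold (adjusted p = 2.31e-10). Replicates 2 and 4 lay inside or below the gal4 range. The gene frg1, named for the human muscular dystrophy region, read 5.17 to 5.57 in gal4 and 7.69, 5.54, 7.76 and 5.52 in notch1a-intra. Its rise in replicates 1 and 3 was 2.28 (adjusted p = 2.08e-11), close to the 2.13 seen at 90 min (adjusted p = 3.84e-08). The gene tdrkh, which encodes a Tudor and KH domain protein of the piRNA pathway in mouse, read 5.96 to 6.64 in gal4 and 8.69, 5.45, 8.26 and 6.02 in notch1a-intra. It rose by 2.16 in replicates 1 and 3 (adjusted p = 1.25e-11) and by 1.44 at 90 min (adjusted p = 0.00105).

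The heat shock factor gene hsf1 was near the bottom of the scale in gal4 (4.39 to 4.72) and read 5.83, 4.52, 5.97 and 4.92 in notch1a-intra. It rose by 1.38 in replicates 1 and 3 (adjusted p = 2.82e-05) and by 0.91 at 90 min (adjusted p = 0.00416). Differences in replicates 1 and 3 were larger for znf346, a zinc finger gene, and ahsa1a, which encodes an activator of the chaperone Hsp90. The znf346 levels were 4.61 to 5.43 in gal4 and 8.29, 5.19, 8.69 and 5.26 in notch1a-intra (difference 3.53, adjusted p = 0.0105). The ahsa1a levels were 5.01 to 5.31 in gal4 and 8.23, 5.26, 8.66 and 4.64 in notch1a-intra (difference 3.34, adjusted p = 0.0221). Both were lost without notch1a-intra replicate 3 (adjusted p = 0.117 and 0.167) and against the gal4 arrays of the same numbers, where the differences stayed at 3.21 and 3.29 (adjusted p = 0.0819 and 0.0939). Both rose at 90 min, by 2.68 (adjusted p = 0.037) and 3.97 (adjusted p = 0.00212). After 3 h of DAPT without heat shock, in replicates 1 and 2 alone, znf346 was 3.99 lower than in solvent controls (adjusted p = 0.012, with 3.08% of probe sets called lower). There ahsa1a was 1.87 higher and not called (adjusted p = 0.333). Of the 14 tested hairy-related genes, 0 were called after 1.5 h of DAPT and 1, lower, after 3 h. Of the 1187 calls of replicates 1 and 3, those shared with 1.5 h of DAPT were 9 in the same direction and 39 opposite. With 3 h of DAPT they were 26 and 22. Of all probe sets, 4.09% were called after 1.5 h of DAPT and 5.35% after 3 h. At neither time were the shared calls, both directions together, a larger share of the 1187 than that.

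The 15 largest rises in replicates 1 and 3, among called genes with no overlap between the groups, can be followed to the 90 min arrays, which share no sample with them. All but 1 had the same sign there and 9 were called, among them notch1a. Of all 598 rises called in replicates 1 and 3, 21.9% were called higher at 90 min, beside 3.72% of all probe sets. Of all 589 falls, 13.6% were called lower, beside 3.15%. Of the 15 largest falls, 10 had the same sign and 0 were called in limma, with 1 at an unadjusted p under 0.05, namely cyth1b, described below (adjusted p = 0.0555). Over all probe sets, 211 were called in the same direction in replicates 1 and 3 and at 90 min, which is 17.8% of the first list and 30.3% of the second, and 8 in opposite directions. For replicates 2 and 4 the shared calls were 36, or 7.83% and 5.17%, with 14 opposite. Of all probe sets, in either direction, 6.87% were called at 90 min, 11.7% in replicates 1 and 3 and 4.54% in replicates 2 and 4. Against gal4 arrays of the same numbers, replicates 1 and 3 shared 147 calls with 90 min (25.9% and 21.1%, 5 opposite) and replicates 2 and 4 shared 26 (7.76% and 3.74%, 20 opposite). Replicates 1 and 3 and replicates 2 and 4, each set against its own controls, shared 36 calls (6.35% and 10.7%) with 14 opposite. Against those controls 5.60% of all probe sets were called in replicates 1 and 3 and 3.31% in replicates 2 and 4.

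**Figure D2:**
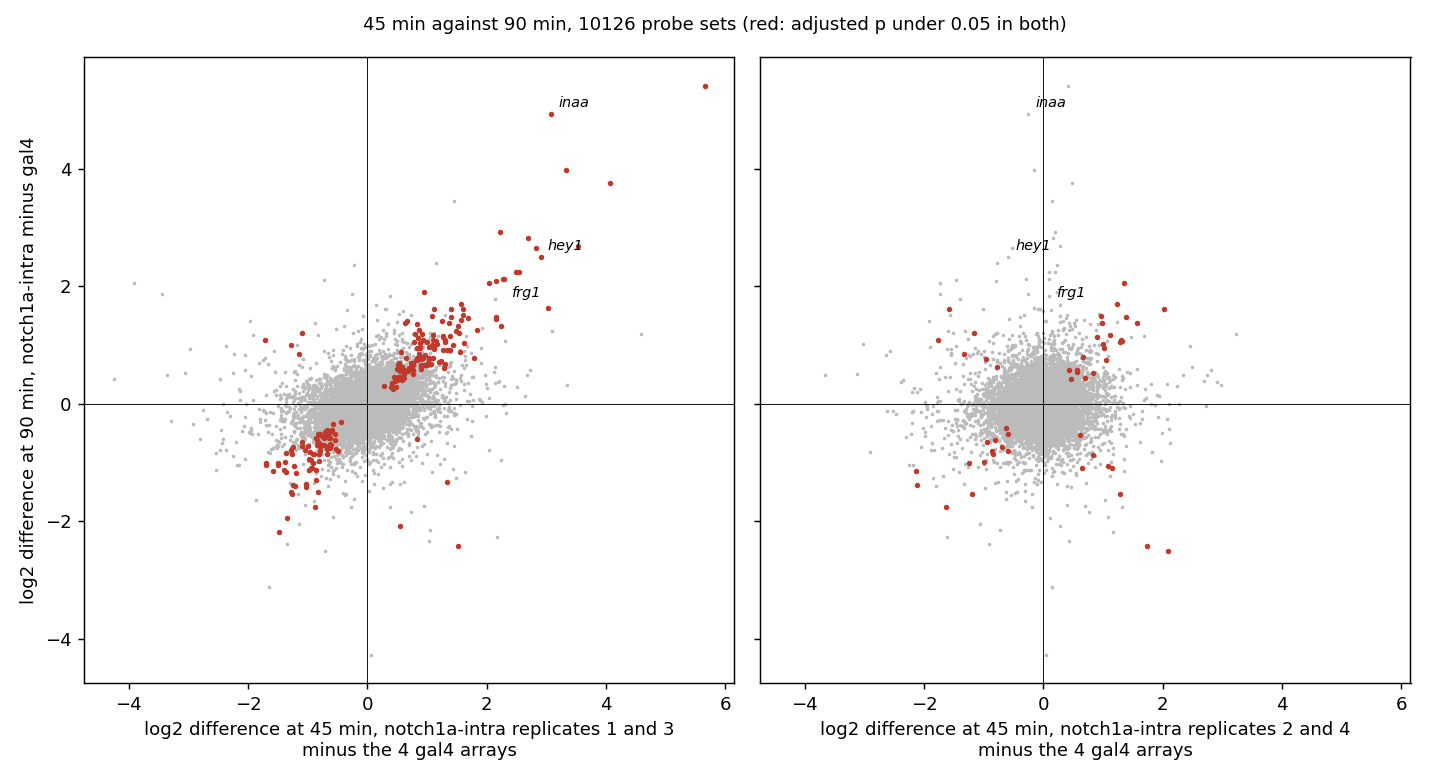
Log2 difference between notch1a-intra and gal4 at 90 min against that at 45 min for the 10126 tested probe sets, with notch1a-intra replicates 1 and 3 on the left and replicates 2 and 4 on the right, each minus the same 4 gal4 arrays; red marks probe sets called in both. On the left 211 calls are shared in direction and 8 are opposite, and on the right 36 are shared and 14 are opposite. Of all probe sets, 6.87% were called at 90 min.

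The falls in replicates 1 and 3 included those of a signalling and a chromatin gene. The gene cyth1b encodes a cytohesin, an exchange factor for ARF GTPases. It read 7.62, 8.54, 7.98 and 8.29 in gal4 and 5.43, 8.86, 5.71 and 8.26 in notch1a-intra, with replicates 1 and 3 below all other arrays. Its difference in those replicates was -2.54 (SE 0.30, adjusted p = 1.27e-08), and -2.23 against gal4 replicates 1 and 3 (adjusted p = 1.21e-05). The linker histone gene h1-10 read 8.80, 8.67, 9.05 and 8.91 in gal4 and 6.40, 8.22, 5.93 and 7.62 in notch1a-intra. All 4 notch1a-intra arrays were lower, and replicates 1 and 3 most of all (-2.69, adjusted p = 4.45e-10). At 90 min h1-10 differed by -0.26 (adjusted p = 0.675).

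Some cell cycle genes, mitotic cyclin genes among them, rose in replicates 1 and 3. Of the 27 tested cell cycle genes, 8 rose there and 1 fell, beside 5.91% and 5.82% of all probe sets, and the median difference of the list was 0.45 against -0.00076. The mitotic cyclin gene ccnb1 read 8.39, 8.35, 8.51 and 7.64 in gal4 and 9.42, 8.09, 9.32 and 8.30 in notch1a-intra. Its difference in replicates 1 and 3 was 1.15 (adjusted p = 7.38e-05), and 0.92 against the gal4 arrays of the same numbers (adjusted p = 0.00585). The related gene ccnb3 read 6.12 to 6.67 in gal4 and 7.54, 5.41, 7.74 and 5.76 in notch1a-intra, higher in replicates 1 and 3 by 1.19 (adjusted p = 0.000558). A dimmer probe set of ccnb3 was called there too (0.98, adjusted p = 0.0105). Its dimmest probe sets were not (0.35 and 0.44, adjusted p = 0.546 and 0.428). Against controls of the same numbers the list had 3 rises and 2 falls, beside 2.85% and 2.75% of all probe sets. At 90 min neither cyclin gene differed by more than 0.07 on its brightest probe set. The list had 0 rises there in limma, 7 at an unadjusted p under 0.05, and 2 falls. The larger fall was that of cdkn1bb, an inhibitor of cyclin-dependent kinases, at -1.50 (adjusted p = 3e-07). At 45 min the brightest probe set of cdkn1bb was lower in all 4 notch1a-intra arrays, at 6.95 to 7.37 against 7.45 to 8.46 in gal4 (-0.73, adjusted p = 0.0276). That call was lost in the block fit (adjusted p = 0.149) and without gal4 replicate 3 (adjusted p = 0.135). A dimmer probe set of the gene read 6.01 to 6.58 in gal4 and 5.36, 6.67, 5.85 and 6.44 in notch1a-intra. Its differences were -0.24 at 45 min (adjusted p = 0.704) and -0.59 at 90 min (adjusted p = 0.203).

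The largest rises over all 4 notch1a-intra arrays, among called genes with non-overlapping groups, were mostly genes of the contractile apparatus. Genes high in replicates 1 and 3 alone could not enter that ranking, so it cannot show whether the largest rises followed notch1a. The filamin C gene flncb had gal4 levels of 6.36, 5.71, 6.67 and 8.11 and notch1a-intra levels of 10.04, 9.91, 10.06 and 9.46. Every notch1a-intra array was above every gal4 array, as that ranking required. The difference was 3.16 (SE 0.74, adjusted p = 0.00675), an 8.91-fold change, and it was called in the block fit and without any single array. The skeletal actin gene acta1a read 5.99, 5.32, 7.44 and 7.48 in gal4 and 11.15, 10.04, 11.12 and 9.52 in notch1a-intra (difference 3.90, adjusted p = 0.0459), with an adjusted p of 0.129 without gal4 replicate 2. The myosin light chain gene myl10 read 5.43 to 7.59 in gal4 and 8.89 to 9.59 in notch1a-intra (difference 2.70, adjusted p = 0.00912), with 0.0535 without gal4 replicate 2.

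The tropomyosin gene tpma was tight in both groups at 45 min. Its gal4 levels were 4.87, 4.86, 4.76 and 4.99 and its notch1a-intra levels were 6.95, 6.67, 6.75 and 6.66, a difference of 1.89 (adjusted p = 0.0106). The titin gene ttn.2 differed by 2.29 (adjusted p = 0.0259, and 0.128 without gal4 replicate 2). The troponin C gene tnnc2.2 differed by 1.87 (adjusted p = 0.0259, and 0.062 without gal4 replicate 1). The actin-binding nexilin gene nexn differed by 1.98 (adjusted p = 0.0453), with 0.137 in the block fit and 0.13 without notch1a-intra replicate 1. The muscle determination gene myod1 read 5.35 to 6.36 in gal4 and 6.78 to 7.66 in notch1a-intra (1.43, adjusted p = 0.0247), with 0.0706 without gal4 replicate 1.

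Of 18 tested genes in the muscle list, 5 rose over all arrays and 0 fell in limma, with 10 and 0 at an unadjusted p under 0.05, beside 2.13% and 1.96% of all probe sets, with a median difference of 0.63 against 0.00914. In replicates 1 and 3, 4 rose, and in replicates 2 and 4, 1 rose, beside 5.91% and 2.50% of all probe sets. Against gal4 arrays of the same numbers 0 were called in either pair. There 8 and 5 were higher and 1 and 0 lower at an unadjusted p under 0.05 in limma. The summed signal of the muscle genes on the array was 13530 to 14100 in the notch1a-intra arrays. It was 5898 to 10050 in gal4, and the groups did not overlap. The brightest member in the notch1a-intra arrays, the actin gene actc1a, read 12.39 to 12.49 there and 10.84 to 11.93 in gal4. Of the 26 muscle genes on the array, 12 were under the array median on all 8 arrays, among them the myogenin gene myog, which reached 5.11, and the fast myosin light chain gene mylpfa, which reached 4.96. At 90 min none of flncb, acta1a, myl10, tpma and ttn.2 was called, with differences of 0.31, 1.18, 0.48, 0.34 and 0.13. The part of muscle-lineage cells in these differences was not tested.

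Other rises shared by all 4 notch1a-intra arrays were those of the Groucho corepressor gene tle3b, the Eph receptor gene epha2a, the lipid phosphatase gene plpp1a, the forkhead gene foxb1a and ntd5. The tle3b levels were 8.16, 6.21, 8.34 and 8.0 in gal4 and 9.30, 9.58, 8.70 and 9.74 in notch1a-intra (1.65, adjusted p = 0.00114), with 0.168 in the block fit. The plpp1a levels were 6.45, 6.16, 6.41 and 7.11 in gal4 and 7.90, 9.07, 7.47 and 8.69 in notch1a-intra (1.75, adjusted p = 0.00757), and it kept its call in the block fit. Replicates 2 and 4 were the higher pair for both genes. The differences of epha2a, foxb1a and ntd5 were 1.80, 1.71 and 2.32, and their block fits gave adjusted p of 0.0767, 0.0824 and 0.144. All 3 were lost without gal4 replicate 2, with adjusted p of 0.07, 0.0759 and 0.19. Of the 12 largest rises over all arrays, 8 had the same sign at 90 min and 0 were called in limma, also at an unadjusted p under 0.05.

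Several of the genes that fell in all 4 notch1a-intra arrays are known from acute responses. The gene tcima encodes a small transcription and immune response regulator. It read 9.0, 9.31, 8.88 and 8.40 in gal4 and 7.72, 7.12, 6.90 and 6.41 in notch1a-intra (-1.86, SE 0.25, adjusted p = 1.13e-06). It was the 1 gene among the 12 largest falls that was also called at 90 min, at -1.15 (adjusted p = 0.00144). The insulin-like growth factor binding protein gene igfbp1a read 7.74, 9.06, 7.88 and 8.62 in gal4 and 6.24, 7.05, 5.91 and 5.99 in notch1a-intra (-2.03, adjusted p = 6.05e-06). The bZIP factor gene cebpb read 8.18, 8.61, 8.0 and 7.15 in gal4 and 6.29, 6.07, 6.49 and 5.46 in notch1a-intra (-1.91, adjusted p = 6.75e-05). The annexin gene anxa4 read 7.42 to 8.30 in gal4 and 5.71 to 6.46 in notch1a-intra (-1.76, adjusted p = 0.00323). None of the 4 genes overlapped between the groups, as the rule for naming them required. Each was called in the block fit and without any single array. At 90 min the differences of igfbp1a, cebpb and anxa4 were 0.52, -0.51 and -0.12, none of them called.

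The neurotrophin receptor homologue gene nradd had the largest fall. It read 10.22, 10.58, 10.66 and 10.76 in gal4 and 7.16, 6.87, 7.25 and 6.91 in notch1a-intra, tight in both groups. The difference was -3.51 (SE 0.92, adjusted p = 0.0159), with an adjusted p of 0.00035 in the block fit, and 0.49 at 90 min (adjusted p = 0.838). The 90 min levels were 6.60, 10.55, 6.23 and 11.16 in gal4 and 10.60, 7.52, 10.69 and 7.68 in notch1a-intra, so that replicates 1 and 3 were low in gal4 and high in notch1a-intra. Falls of 1.76 to 2.11 were found for the T-box gene tbx3a, the Src-family kinase gene yrk, the collagen gene col1a1a, the homeobox gene hhex and the junction gene cgnl1, all with non-overlapping groups. These 5 calls were lost without gal4 replicate 2 (tbx3a, 0.166; col1a1a, 0.0519; hhex, 0.145; cgnl1, 0.129 as adjusted p) or without notch1a-intra replicate 1 (yrk, 0.138). The proneural gene ascl1b was dim. It read 5.54, 6.07, 5.76 and 6.43 in gal4 and 4.38, 5.25, 4.75 and 4.65 in notch1a-intra (-1.19, adjusted p = 0.00221). At 90 min ascl1b fell by 0.99 (adjusted p = 0.00838). Against gal4 arrays of the same numbers it was called lower in replicates 2 and 4 (-1.31, adjusted p = 0.0243). There 0 hairy-related genes were called higher. In replicates 1 and 3 that difference was -1.08 (adjusted p = 0.0536). Of 14 tested proneural and neuronal genes, 1 fell over all arrays, ascl1b, and 0 rose, beside 1.96% and 2.13% of all probe sets. The part of hairy-related genes in the ascl1b fall was not tested.

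The blood and endothelium genes had a lower summed signal in the notch1a-intra arrays, with few members called. The summed signal of the 19 blood and endothelium genes on the array was 1693 to 5549 in gal4. It was 327.1, 1432, 756.0 and 1102 in notch1a-intra, below every gal4 array. Of 14 tested members, 1 fell over all arrays and 4 in replicates 1 and 3, with 11 and 10 falls at an unadjusted p under 0.05 in limma and 0 rises either way, beside 1.96% and 5.82% of all probe sets lower. Against gal4 arrays of the same numbers 0 fell in replicates 1 and 3, with 7 at an unadjusted p under 0.05. The median difference of the list was -1.24 over all arrays, -1.61 in replicates 1 and 3 and -1.56 there against controls of the same numbers. The haematopoietic factor gene gata2a read 9.69, 10.41, 9.34 and 8.55 in gal4 and 5.65, 8.60, 7.22 and 7.96 in notch1a-intra. The embryonic globin gene hbae3 read 8.89, 10.34, 7.27 and 8.50 in gal4 and 4.98, 7.81, 5.63 and 6.21 in notch1a-intra. Their differences in replicates 1 and 3, -3.06 and -3.44 (adjusted p = 0.0451 and 0.0455), were lost without notch1a-intra replicate 1 (adjusted p = 0.413 and 0.294) and were not called against controls of the same numbers, where they stood at -3.08 and -2.77 (adjusted p = 0.134 and 0.254). The heme synthesis gene alas2 and the carbonic anhydrase gene cahz made up the 4. A dimmer probe set of hbae3, which the list counts leave out, read 5.30 to 7.70 in gal4 and 4.23 to 5.72 in notch1a-intra. It was called lower over all arrays (-1.65, adjusted p = 0.00927) and in replicates 1 and 3 (-2.05, adjusted p = 0.00275). In replicates 2 and 4 it was not called (-1.24, adjusted p = 0.148). At 90 min the median of the list was 0.42 and 0 of its members were called in limma, also at an unadjusted p under 0.05. Of the 19 genes, 4 were under the array median on all 8 arrays. The part of blood cells in these differences was not tested.

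**Figure D3:**
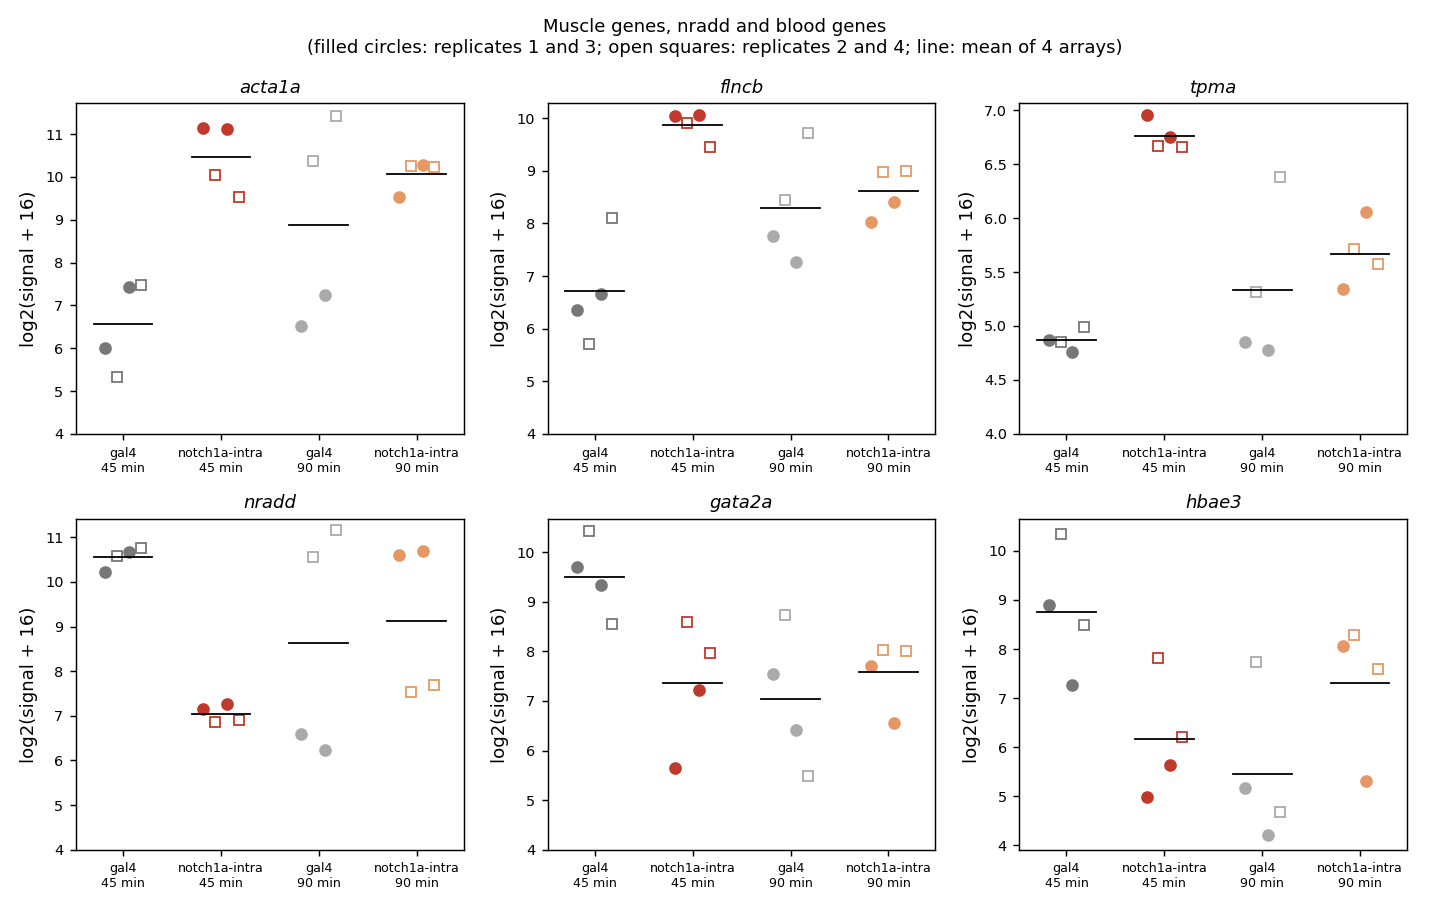
Log2(signal + 16) of the muscle genes acta1a, flncb and tpma, of nradd and of the blood genes gata2a and hbae3 on each array of the 4 groups, with filled circles for replicates 1 and 3, open squares for replicates 2 and 4 and a line at the mean of 4 arrays. At 45 min all 4 notch1a-intra arrays lie above gal4 for the muscle genes and below it for nradd, and at 90 min the groups overlap.

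The AP-1 genes junba and fosab, immediate early genes that cells switch on within minutes of a stimulus or of handling, were low in notch1a-intra replicates 2 and 4. The AP-1 subunit gene junba read 8.87, 8.91, 8.83 and 8.22 in gal4 and 8.44, 5.92, 9.17 and 5.24 in notch1a-intra. Replicates 1 and 3 were at the control level and replicates 2 and 4 were far below every other array. The difference of replicates 2 and 4 was -3.12 (SE 0.40, adjusted p = 8.15e-07), and -2.98 against gal4 replicates 2 and 4 (adjusted p = 3.96e-05). That of replicates 1 and 3 was 0.10 (adjusted p = 0.917). The AP-1 partner gene fosab read 10.11, 10.68, 10.44 and 8.92 in gal4 and 9.89, 7.52, 9.84 and 6.50 in notch1a-intra, with a difference of -3.03 in replicates 2 and 4 (adjusted p = 0.000104, and 0.0584 without notch1a-intra replicate 4). Over all 4 arrays junba and fosab were called lower (-1.51 and -1.60, adjusted p = 0.0389 and 0.0443), and both calls were lost in the block fit and without notch1a-intra replicate 4 (adjusted p = 0.263 and 0.26).

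The bZIP gene cebpd, induced in acute responses, fell in every notch1a-intra array and fell further in replicates 2 and 4. It read 7.80, 8.40, 7.62 and 7.50 in gal4 and 6.38, 5.03, 6.66 and 4.80 in notch1a-intra. Its difference was -2.11 over all arrays (adjusted p = 0.000342, and 0.0672 in the block fit) and -2.91 in replicates 2 and 4 (adjusted p = 3.19e-05). Of 25 tested stress and cell death genes, 7 fell in replicates 2 and 4 and 2 in replicates 1 and 3, with 0 rises in limma (0 and 1 at an unadjusted p under 0.05), beside 2.04% and 5.82% of all probe sets lower. Against gal4 arrays of the same numbers 4 fell in replicates 2 and 4 (beside 1.59%) and 0 in replicates 1 and 3, with 1 at an unadjusted p under 0.05. The median differences were -0.63 and -0.17 against all gal4 arrays, beside 0.0218 and -0.00076 for all probe sets. Other members lower in replicates 2 and 4 were the stress factor gene atf3 (-2.39, adjusted p = 0.0249), the growth arrest gene gadd45ba (-1.57, adjusted p = 0.00943) and txnipa, which encodes a thioredoxin-interacting protein (-0.94, adjusted p = 0.0098). All 3 were lost without notch1a-intra replicate 2 or 4, with adjusted p of up to 0.34, 0.205 and 0.18, and txnipa in the block fit too (adjusted p = 0.0581). Against gal4 replicates 2 and 4 gadd45ba was called (-1.56, adjusted p = 0.0395), whereas atf3 and txnipa were not (-2.11 and -0.69, adjusted p = 0.129 and 0.149). The immediate early genes ier2a and ier5 were not called and read 10.80 to 11.52 and 10.83 to 11.42 over the 8 arrays. At 90 min 0 of the 25 were called in limma (3 higher and 1 lower at an unadjusted p under 0.05), and junba and fosab differed by 0.51 and 1.02.

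**Figure D4:**
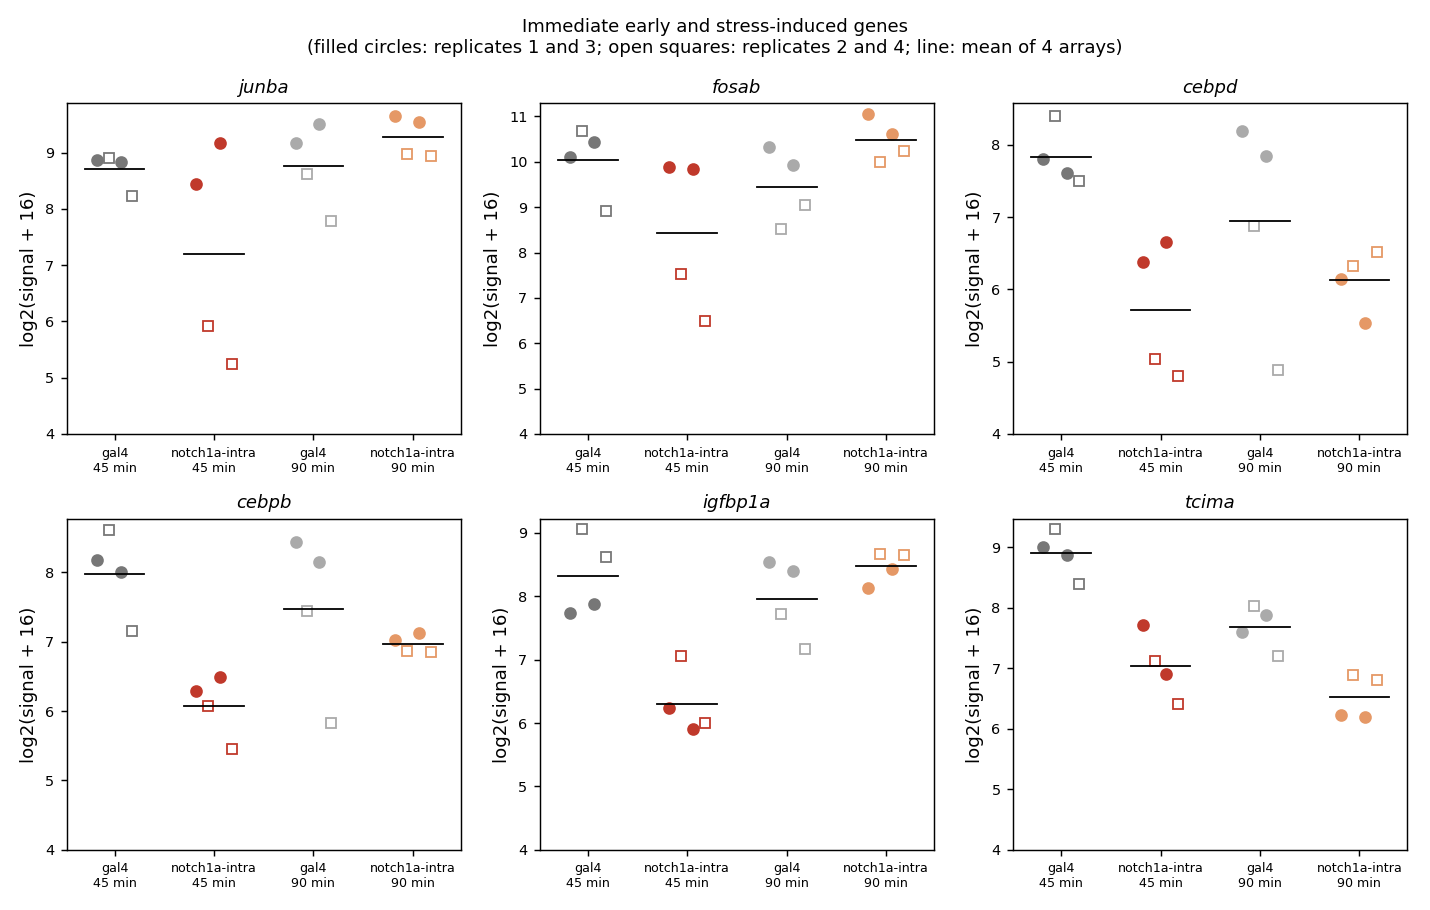
Log2(signal + 16) of junba, fosab, cebpd, cebpb, igfbp1a and tcima on each array of the 4 groups, with filled circles for replicates 1 and 3, open squares for replicates 2 and 4 and a line at the mean of 4 arrays. At 45 min the open squares of junba and fosab in notch1a-intra lie below every other array, while all 4 notch1a-intra arrays are low for cebpd, cebpb, igfbp1a and tcima.

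Of the heat shock genes themselves, few were called. Of 21 tested, 1 rose over all arrays, the hsf1 gene described above, and 0 fell in limma, with 3 lower at an unadjusted p under 0.05, beside 2.13% and 1.96% of all probe sets. The inducible chaperone gene hsp70.3 read 10.98, 12.22, 10.76 and 11.44 in gal4 and 10.37, 10.74, 10.35 and 10.21 in notch1a-intra. All 4 notch1a-intra arrays were below the gal4 arrays, but the difference of -0.93 was not called (adjusted p = 0.212).

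Replicates 2 and 4 also had rises of their own. The gene lmbr1l, which encodes a membrane protein related to the lipocalin receptor, read 9.67, 6.86, 9.71 and 7.80 in gal4 and 7.99, 10.49, 7.61 and 10.70 in notch1a-intra. Against gal4 arrays of the same numbers it was 3.26 higher in replicates 2 and 4 (adjusted p = 6.4e-05) and 1.89 lower in replicates 1 and 3 (adjusted p = 0.0175). At 90 min it was 2.52 lower (adjusted p = 0.000581), the direction of replicates 1 and 3. The retinoic acid binding protein gene crabp2a read 9.26 to 9.78 in gal4 and 9.83, 11.03, 9.55 and 10.73 in notch1a-intra, with replicates 2 and 4 higher by 1.38 (adjusted p = 0.00148, and 0.101 without notch1a-intra replicate 2). The Hedgehog-binding protein gene hhip was 1.71 higher in replicates 2 and 4 (adjusted p = 0.000602, and 0.052 without notch1a-intra replicate 4). The Hedgehog ligand gene shha was dim, at 4.57 to 5.14 in gal4 and 4.77, 6.28, 5.58 and 6.27 in notch1a-intra, with a difference of 1.43 in replicates 2 and 4 (adjusted p = 0.00585, and 0.139 without replicate 4).

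For a further set of genes the division of the controls by number was as large as the difference from them. The gene cyp26a1, whose enzyme breaks down retinoic acid in the tail bud, read 7.80, 11.06, 8.12 and 10.67 in gal4 and 6.79, 9.62, 7.31 and 9.40 in notch1a-intra. Replicates 2 and 4 were high and replicates 1 and 3 low in both genotypes, and each notch1a-intra array was below the gal4 array of its number. Set against all gal4 arrays, replicates 1 and 3 were lower by 2.37 (adjusted p = 0.0126), and set against gal4 replicates 1 and 3 they were lower by 0.91 (adjusted p = 0.485). The aldolase C gene aldocb read 6.04, 9.75, 6.38 and 9.39 in gal4 and 5.17, 8.47, 4.99 and 7.80 in notch1a-intra, and its difference moved from -2.81 (adjusted p = 0.00189) to -1.13 (adjusted p = 0.27). In replicates 2 and 4, cyp26a1 and aldocb differed from all gal4 arrays by 0.10 and 0.25 (adjusted p = 0.966 and 0.888). In the block fit both were called lower there, by 1.36 and 1.43 (adjusted p = 0.000303 and 0.000534). Against gal4 replicates 2 and 4 in the fit with the other groups, the same differences were not called (adjusted p = 0.295 and 0.176). The block fit has few arrays from which to estimate the spread. In replicates 1 and 3, the choline kinase gene chka moved from -2.43 to -0.82 and the prolyl hydroxylase gene p4ha1b from -2.45 to -1.01. Of the 15 largest falls in replicates 1 and 3, 8 belonged to genes whose odd and even gal4 means were more than 1 apart, and 3 were called against controls of the same numbers. Of the 15 largest rises, 1 belonged to such genes and 9 were called.

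**Figure D5:**
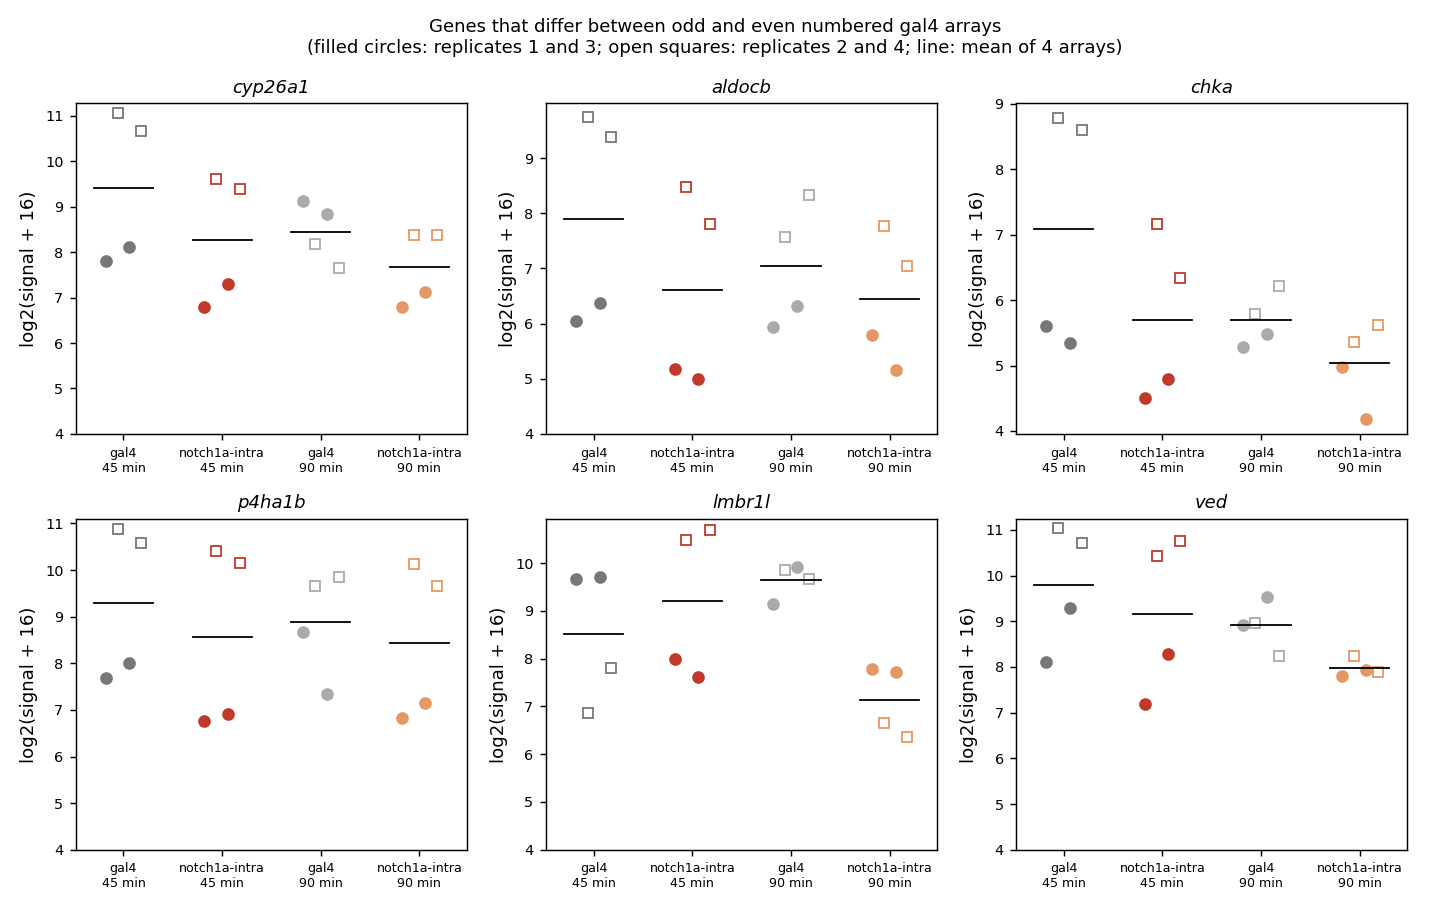
Log2(signal + 16) of cyp26a1, aldocb, chka, p4ha1b, lmbr1l and ved on each array of the 4 groups, with filled circles for replicates 1 and 3, open squares for replicates 2 and 4 and a line at the mean of 4 arrays. At 45 min circles and squares separate within the gal4 group for all 6 genes, as they do for cyp26a1 from 7.80 and 8.12 to 10.67 and 11.06.

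Few genes of the presomitic mesoderm itself were called over all arrays. Of 21 tested segmentation and somite genes, 1 was called over all arrays, the protocadherin gene pcdh10b (0.77, adjusted p = 0.0364, and 0.248 in the block fit). In replicates 1 and 3, 4 rose and 3 fell, beside 5.91% and 5.82% of all probe sets, and 2 rose and 1 fell against gal4 arrays of the same numbers. In replicates 2 and 4, 3 rose and 0 fell, with 1 lower at an unadjusted p under 0.05 in limma, beside 2.50% and 2.04%. The brightest probe set of msgn1 was 0.42 lower in replicates 1 and 3 (adjusted p = 0.00025, and 0.0618 without notch1a-intra replicate 1), and a dimmer probe set of the gene, of a kind that can cross-hybridise, was 1.75 higher, so the gene has no single direction. The somite gene mespba read 4.72, 4.16, 7.06 and 4.17 in notch1a-intra and 4.19 to 5.0 in gal4, so its call in replicates 1 and 3 (1.43, adjusted p = 0.00632) came from replicate 3 and was lost without it (adjusted p = 0.805). The ventral repressor genes ved and vox were lower in replicates 1 and 3 by 2.05 and 1.14 (adjusted p = 0.0118 and 0.0268). Against controls of the same numbers their differences were -0.96 and -0.77, with adjusted p of 0.395 and 0.294. Over all arrays, 0 members of the Fgf output, epidermis, pronephros, tail bud progenitor, Wnt output and posterior Hox lists were called in limma, with 1, 0, 0, 0, 4 and 4 members at an unadjusted p under 0.05. The neural tube, notochord and hatching gland lists also had 0 calls there, with 1 member each at an unadjusted p under 0.05, and the 1 call of the germ cell list was h1-10. Of 21 tested genes of the retinoic acid pathway, 2 rose over all arrays and 4 in replicates 2 and 4, beside 2.13% and 2.50% of all probe sets, and 3 rose and 3 fell in replicates 1 and 3. In each pair of replicates 3 rose against gal4 arrays of the same numbers. The nuclear receptor gene nr2f2 read 5.49, 5.54, 6.04 and 6.21 in gal4 and 6.68, 7.0, 6.33 and 7.20 in notch1a-intra, above every gal4 array. Its difference was 0.98 over all arrays (adjusted p = 0.00681, and 0.0767 in the block fit) and -0.35 at 90 min (adjusted p = 0.422).

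Compared with 90 min, the effect at 45 min differed in 70 probe sets (0.691%), 31 with a higher and 39 with a lower difference at 90 min. Without notch1a-intra replicates 2 and 4 at 45 min the count was 125 (1.23%, with 0.573% higher and 0.662% lower), and without gal4 replicate 3 at 90 min it was 31. The inaa difference was 3.51 larger at 90 min over all arrays (adjusted p = 0.00415). In replicates 1 and 3 alone the inaa difference at 45 min was 3.08, against 4.93 at 90 min. The igfbp1a difference, a fall at 45 min, was 2.54 higher at 90 min (adjusted p = 0.000212). The tle3b difference was 2.15 lower at 90 min (adjusted p = 0.00916).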

How the data were processed

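RNA of posterior presomitic mesoderm was amplified, labelled with biotin and hybridised to Affymetrix zebrafish arrays, per the labels' protocols. The authors deposited intensity values on a linear scale, named MAS5 in the submitters' processing notes, where its version is not given. From these, log2 of the signal plus a pseudocount of 16 was computed and quantile normalized over the 72 arrays, because their medians (5.31 to 6.05) spanned more than 0.5. The 115 control probe sets were left out. Probe sets above the array median on 3 or more arrays were tested. Symbols came from the platform annotation, updated by Entrez identifier against RefSeq genes of GRCz12tu. Of 15502 probe sets, 10795 had 1 symbol, 135 several and 4572 none. The brightest probe set stands for a gene.

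Groups were compared in limma 3.58.1 (R 4.3.3, statmod 1.5.0) with 19 group means over all 72 arrays, trend and robust moderation, and two-sided tests. Adjusted p-values (Benjamini-Hochberg, per comparison) come from this test and are called under 0.05. They rest on a spread between labelled replicates that is pooled over the 19 groups. For a given gene it can be wider or narrower than the spread within the compared groups. The number of arrays limits the precision. The main fit held no pairing of arrays. At 45 min the deviations of same-numbered gal4 and notch1a-intra arrays from their group means correlated at 0.312, 0.31, 0.304 and 0.21, all over 0.1. The numbers were taken as pairs in the block fit alone, which is an alternative, although the labels do not say what a number marks. Differently numbered arrays that were both odd or both even correlated about as highly, at 0.237 to 0.31, and the others at -0.365 to -0.163, so these data divide odd from even numbers and do not single out the same number. At 90 min the deviations of same-numbered arrays correlated at 0.0446 to 0.116, although odd and even arrays also divided within each genotype. The test was also run on simulated data with independent noise around the group means. Those data held no division by number, so that run cannot show how the test behaves under it.

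Genes named were the 12 largest rises and falls over all arrays, 15 for replicates 1 and 3 and 8 for replicates 2 and 4, among called genes with non-overlapping groups, and up to 4 members of each of 21 lists, besides genes of the Notch pathway. The members, lists and rules were chosen with earlier results of these data known. Alternatives were the deposited scaling, median centring, a pseudocount of 1 or 64, a stricter filter or none, the compared groups alone, the replicate block (in the fit of the compared groups alone), array quality weights, plain moderation and each array left out in turn. No sequences or coordinates are given.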

Additional observations from a re-analysis of the deposited data

Results flagged for a closer look

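Single arrays stood apart from the other 3 of their group for 12 of the named genes at 45 min, by the gap to the nearest array as a share of the group's range. Chance gives about 1 such group in 20. Both groups of every tested named gene were looked at, so a number of such gaps would arise by chance. Whether the 12 exceed that number was not tested. In the gal4 group, replicate 2 was high for jag1a (0.862) and hhex (0.859) and low for mdkb (0.864), pax6b (0.834) and tle3b (0.84). Replicate 4 was high for hhip (0.862) and tnnc2.2 (0.842) and low for junba (0.884) and frg1 (0.845). Replicate 3 was high for wnt11 (0.898). In the notch1a-intra group, replicate 2 was low for axin2 (0.836) and replicate 1 high for piwil1 (0.914).

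The effect of notch1a-intra differed between 45 and 90 min, by the interaction in limma, for 8 named genes. The interaction took all 4 notch1a-intra arrays at 45 min, of which replicates 2 and 4 had notch1a near the gal4 level. It therefore mixes time with that division. The 90 min difference was higher than that at 45 min for inaa by 3.51 (adjusted p = 0.00415), fosab by 2.62 (0.047), igfbp1a by 2.54 (0.000212) and h1-10 by 1.55 (0.0458). It was lower, with values of -3.2 for lmbr1l (0.0133), -2.3 for clic4 (0.0398), -2.15 for tle3b (0.00916) and -1.33 for nr2f2 (0.0295). At 45 min fosab differed by -0.17 in replicates 1 and 3 and by -3.03 in replicates 2 and 4. The corresponding values were -2.69 and -0.94 for h1-10, and 0.68 and 1.28 for nr2f2. At 90 min the 3 genes differed by 1.02, -0.26 and -0.35.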

How the results depend on the processing

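The count of 414 calls over all arrays was 342 to 467 under the other scalings, pseudocounts, filters and plain moderation. It was 61 with the compared groups fitted alone, 158 with the replicate block in that fit, 338 with a block of odd against even numbers there (chosen after seeing the data), 2651 with array quality weights, and 1187 and 460 with notch1a-intra replicates 2 and 4 or 1 and 3 left out. Median centring made 62.6% of calls higher, against 52.2%. For replicates 1 and 3 the 1187 calls became 261 with the groups alone, 1824 with array weights, 567 with gal4 replicates 2 and 4 left out too (chosen after seeing the data) and, beside the 261, 1297 with the block. For replicates 2 and 4 the 460 calls became 63 with the groups alone and 772 with the block in that fit, and 3111 with weights. Median centring gave 593 there, 72.8% of them higher against 55%, with a shift of the median of all probe sets of 0.101. At 90 min the 696 calls became 329 with the groups alone and 297 with the block in that fit. For the effect between times the 70 calls became 21 with the groups alone and 48 with the block there, 1341 with weights and 125 without notch1a-intra replicates 2 and 4. Leaving out single arrays gave 244 to 524, 349 to 1337 and 25 to 640 for the 3 fits at 45 min, 434 to 704 at 90 min and 31 to 129 between times. The cause was not tested.

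Of the named genes, 5 of 42 called over all arrays, 13 of 68 called in replicates 1 and 3 and 3 of 35 called in replicates 2 and 4 were called under every alternative. Signs turned over all arrays with array weights for clic4 (-0.12), p4ha1b (1.65), aph1b (-0.61), her6 (-1.08), her8a (-1.01), ved (1.29), ccnb3 (-0.64) and pax6b (-0.87). They turned for junba (0.10) without replicates 2 and 4 and for ccnb3 (-0.86) without replicates 1 and 3. In replicates 2 and 4 they turned for aldocb (-1.43) and cyp26a1 (-1.36) in the block fit and for chka (0.87) with array weights.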
